A study of Mus musculus with 48 samples.

Results

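The genes described here are 10 clock genes grouped under the phase of Dbp: Dbp, Tef, Hlf, Nr1d1, Nr1d2, Per1, Per2, Per3, Cry2 and Ciart. The hour at which each of them peaks was not measured here. They were read in liver and colon of 12-week-old mice from 4 diet groups. Every probe whose accession maps to a member symbol was taken, which gave 16 probes for the 10 genes, out of 41174 probes and 18434 named genes on the array. The members were chosen with the liver contrasts of LH and HL against HH in view, so the liver diet values are a description with no test. The colon diet contrasts, the difference between the tissues and the deviations of single mice within a diet group are measures other than those liver contrasts and were tested, although the members were proposed with earlier results of these data known.

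Dams were C57BL/6 mice on a high-fat diet that was either high (H) or low (L) in selenium and folate, the diet running through mating, gestation and lactation. The male offspring then stayed on the dam's diet or were switched to the other one after weaning. In a group name the dam's diet comes first and the offspring's diet after it, so HH and LL mice had matched diets and HL and LH mice were switched. All groups shared the high-fat base diet, and all mice were fasted and re-fed before whole liver and whole colon were taken. The labels give neither the hour at which each mouse was sampled nor its litter, so the p-values measure the spread between mice whose litters are not known here. Each tissue of each diet group had 6 arrays. The HH liver arrays 3 and 6 carry the same animal and were averaged, which leaves 23 liver mice, 5 of them HH, and 24 colon mice. The study allocated 6 male offspring to each group and took both tissues, so livers and colons may come from the same mice. The labels do not tie a liver to a colon, and the fit of liver minus colon treated them as unpaired.

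The circadian clock is a feedback loop of transcription factors that runs in nearly every cell. BMAL1 (encoded by Arntl) and CLOCK bind E-boxes and switch on the Per and Cry genes, whose proteins then inhibit them. They also switch on Nr1d1 and Nr1d2, which encode the haem-sensing repressors REV-ERB-alpha and REV-ERB-beta, and these in turn hold down Arntl through RORE sites. Dbp, Tef and Hlf encode the PAR bZIP activators, which bind D-boxes and carry the rhythm to enzymes of liver metabolism, while Ciart (CHRONO) is a further repressor of BMAL1 and CLOCK. In liver these genes swing over the day and follow the time of feeding, and Per1 and Per2 also answer glucocorticoid hormones.

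The upstream sequences are shown for 4 of the 7 members that held a match to a motif searched for. They are the bases that precede the start given for each gene in a promoter reference on GRCm38.p6. The 29 bases next to that start in Ciart and the 42 in Per3 were left out because they lie inside the annotated RefSeq gene. The sequences are written 5′ to 3′ along the strand of the gene. Capitals mark E-boxes in Ciart and Tef, D-boxes in Per3 and, in Nr1d1, the reverse complement of CACGTT.
Ciart, chr3:95882258-95882478, minus strand: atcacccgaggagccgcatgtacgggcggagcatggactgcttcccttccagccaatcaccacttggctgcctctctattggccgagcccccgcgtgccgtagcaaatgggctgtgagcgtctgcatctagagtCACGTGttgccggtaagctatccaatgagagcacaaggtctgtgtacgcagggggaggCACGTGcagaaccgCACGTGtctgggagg
Tef, chr15:81802423-81802672, plus strand: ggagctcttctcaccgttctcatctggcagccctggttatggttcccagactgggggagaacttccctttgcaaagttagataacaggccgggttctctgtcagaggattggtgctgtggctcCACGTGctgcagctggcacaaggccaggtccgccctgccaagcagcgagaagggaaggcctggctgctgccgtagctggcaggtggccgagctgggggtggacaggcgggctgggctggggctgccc
Per3, chr4:151044708-151044915, minus strand: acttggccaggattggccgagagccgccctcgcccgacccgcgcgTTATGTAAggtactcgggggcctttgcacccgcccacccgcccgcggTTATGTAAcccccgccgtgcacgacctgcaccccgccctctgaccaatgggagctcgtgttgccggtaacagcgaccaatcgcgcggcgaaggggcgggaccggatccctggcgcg
Nr1d1, chr11:98775378-98775627, minus strand: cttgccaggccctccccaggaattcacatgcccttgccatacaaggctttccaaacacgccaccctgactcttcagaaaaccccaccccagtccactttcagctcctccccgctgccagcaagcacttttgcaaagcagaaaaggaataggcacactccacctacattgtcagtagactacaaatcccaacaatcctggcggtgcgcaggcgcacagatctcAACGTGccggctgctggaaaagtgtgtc

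A promoter was matched for 9 of the 10 members, all but Per2, and 250 bases before the start were searched on both strands. The E-box CACGTG lay at 3 places in Ciart, between 116 and 39 bases before the promoter start, and also in Per1 and Tef. In Per1 all 250 bases of the matching window lie inside the annotated gene, and Tef matched both before its gene and inside it. The E-box was present in 6.02% of all 32851 promoter windows of that length. Per3 held the D-box TTATGTAA at 2 places, a motif present in 0.819% of windows. The variant CACGTT, in 3.85% of windows, was found in Nr1d1 and Cry2, and the cyclic AMP element TGACGTCA, in 1.55%, in Hlf just before its start. The other D-box form TTACGTAA (0.113%) and the RORE in the 2 forms searched (0.177% and 0.174%) had no match in the members. A match is a string of letters in this window and not a measured binding site, and Dbp and Nr1d2 had none of the 7 forms searched.

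Values are log2 ratios of the mouse RNA (Cy3) over a common reference RNA (Cy5) on the same array. A value of 1 is 2-fold above the reference, and levels of different genes cannot be set against each other. The labels name the reference as a multi-organ mouse RNA and the study's methods as a pool of the study's own liver and intestine RNA, so the level 0 has no fixed meaning, while differences between mice do not depend on it. The lead probe of each gene, the one with the brightest Cy3 signal, is used unless stated. Between 55.1% and 73.7% of spots stood above background in Cy3, and no member probe was saturated on any array. The lead probes of 8 members stood above background on all 48 arrays. Ciart fell short on 2 of the 24 liver arrays, both HH, and Per3 on 10 of 24 in liver (5 of them HH) and on 2 of 24 in colon, so that Per3 values in liver rest partly on dim spots. Each of the 12 slides held 1 array of each diet group from 1 tissue, and all liver slides were scanned apart from all colon slides.

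Several libraries stood apart. On 4 arrays (HH liver 2, HL liver 5 and 6, and HH colon 1) a few spots with a bright local background compressed the log ratios to an SD of 0.55 to 0.63, against 0.83 to 0.96 once these backgrounds were replaced. Xist, the non-coding RNA of the inactive X chromosome in females, was above 8.5 on the log2 Cy3 scale in 2 liver mice (HL 2 and LL 6) and in 6 colon mice (HH 1, HH 5, HL 5, LL 1, LL 3 and LL 5), although the mice are described as male. The Y-linked gene Eif2s3y was low in 4 of these 8 (liver HL 2 and colon HL 5, LL 1 and LL 3), at 6.29 to 7.37 on the same scale, and stood at 10.09 to 11.17 in the other 4. The 2 arrays of the same HH liver animal correlated at r = 0.805 in their deviations from the HH mean over all probes, while the highest r of any other HH pair was 0.261. For the members these 2 arrays differed by at most 0.26 (Cry2), and for Dbp they read -1 and -1.08.

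In liver, HH had the lowest group mean of the 4 diets for all 10 members. A mean above HH was seen in LH for 10 of 10 members beside 47.3% of all probes, in HL for 10 beside 47.8%, and in LL for 10 beside 47.1%. More than 1.5-fold above HH were 5 members in LH (0.947% of all probes), 6 in HL (0.265%) and 4 in LL (0.0802%), and Dbp, Ciart, Tef and Per1 were among them in all 3. The median member difference was 0.63 in LH, 0.64 in HL and 0.46 in LL, where the median of all probes was -0.01. These contrasts chose the members and share the same 5 HH mice, so the counts describe the choice and support nothing.

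**Figure D1:**
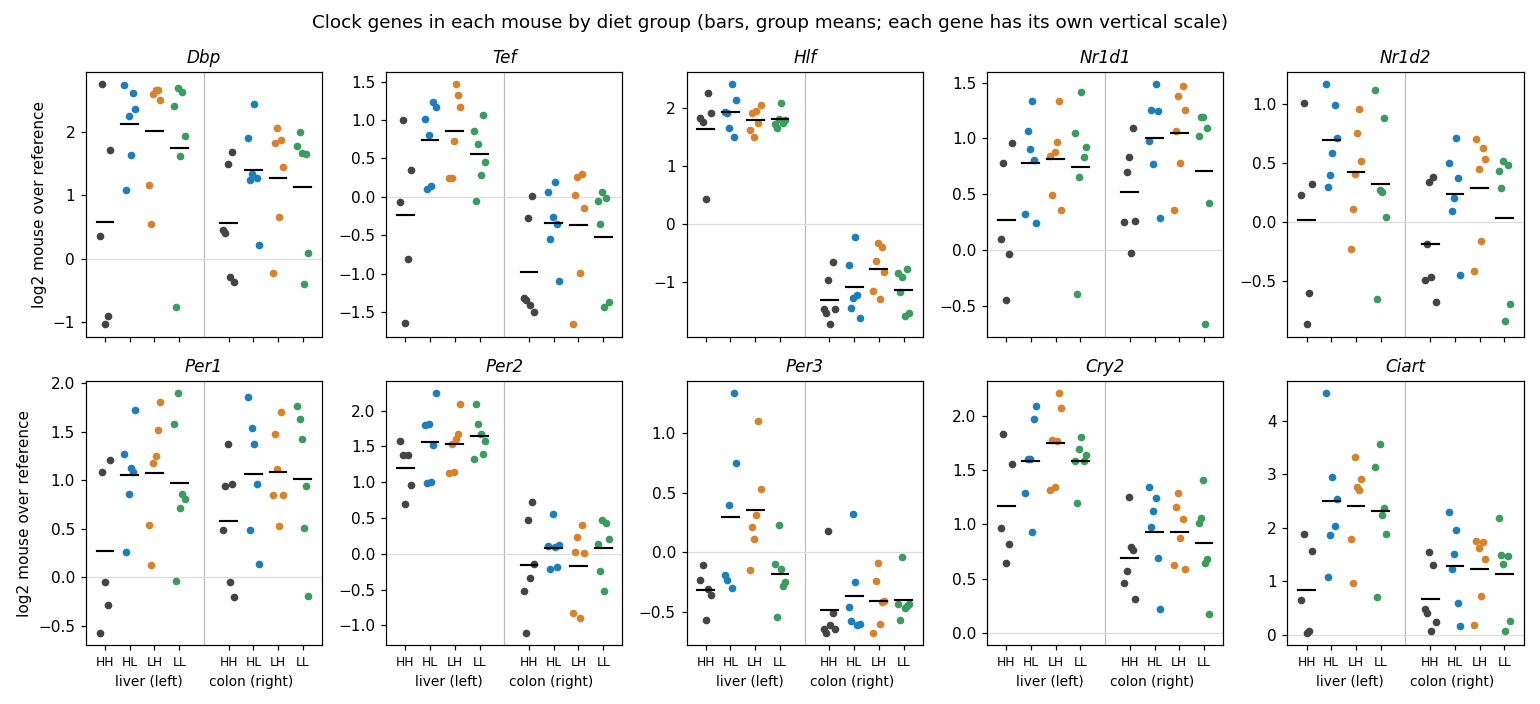
Log2 ratio of mouse over reference for the lead probe of each member, with 1 point per mouse, bars at the group means and the 4 diet groups of liver to the left and of colon to the right of the grey line. In liver the HH points of Dbp run from -1.04 to 2.76, and Hlf and Per2 in liver lie above their colon values in nearly all mice.

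Dbp, the D-box activator for which this phase is named, lies on chromosome 7 (45705100-45710203, GRCm38.p6). It had the widest spread within groups of the 10 members. Its values in the 5 HH livers were 0.35, 2.76, -1.04, -0.91 and 1.71. HL livers ran from 1.09 through a median of 2.31 to 2.75, LH livers from 0.55 through 2.56 to 2.66, and LL livers from -0.76 through 2.17 to 2.69. Thus 2 HH mice (3 and 4) and LL mouse 2 were low, HH mouse 2 was the highest of all 23, and every diet group overlapped HH. The difference of means was 1.45 ± 0.65 (SE, log2) for LH minus HH, 1.55 ± 0.65 for HL minus HH and 1.18 ± 0.65 for LL minus HH. Without HH mouse 3 the LH difference was 1.05 and the LL difference 0.78, and without HH mouse 2 the LH difference was 2.00. Within slides Dbp was above the HH array in 5 of 6 slides for each of the 3 diets, with the caution that 2 of the 6 slides carry the same HH animal.

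Tef (chromosome 15, 81802673-81826863), the thyrotroph embryonic factor and a close relative of Dbp, read -0.06, 1.00, -1.64, -0.81 and 0.35 in the HH livers. It ranged from 0.10 to 1.23 in HL, from 0.24 to 1.47 in LH and from -0.05 to 1.07 in LL. The same 2 HH mice were again the lowest. The difference from HH was 1.09 ± 0.36 in LH, 0.97 ± 0.36 in HL and 0.78 ± 0.36 in LL. Without HH mouse 3 these were 0.74, 0.62 and 0.43. In the full set all 3 Tef probes had higher means in these groups than in HH. Hlf (chromosome 11, 90336535-90390917), the third PAR bZIP factor, had another pattern in liver. Of the HH mice, 4 read between 1.76 and 2.26, within or near the range of the other groups, and HH mouse 3 was far lower at 0.43. Its differences of 0.16 ± 0.22 in LH, 0.28 ± 0.22 in HL and 0.16 ± 0.22 in LL turned to -0.14, -0.02 and -0.14 without that mouse.

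The REV-ERB genes had smaller differences. Nr1d1 (chromosome 11, 98767932-98775377) read 0.10, 0.78, -0.45, -0.04 and 0.96 in HH livers, with group means of 0.27 in HH, 0.78 in HL, 0.81 in LH and 0.74 in LL. The LL range ran down to -0.40 in mouse 2, as low as the lowest HH mice. The 2 dimmer Nr1d1 probes gave LH differences of 0.14 and 0.05 where the lead probe gave 0.54 ± 0.28. Without HH mouse 3 the lead probe gave 0.36 in LH, 0.33 in HL and 0.29 in LL. Nr1d2 (chromosome 14, 18204056-18239106) read 0.23, 1.01, -0.87, -0.60 and 0.32 in HH livers and averaged 0.69 ± 0.34 (SD, n = 6) in HL. Its LH difference of 0.40 ± 0.31 was 0.18 without HH mouse 3 and 0.65 without HH mouse 2, and its LL difference of 0.30 ± 0.31 was 0.08 without HH mouse 3.

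Among the repressors, Ciart (chromosome 3, 95878500-95882257) had the largest differences, with HH livers at 0.66, 1.89, 0.03, 0.08 and 1.57. HL livers ranged from 1.08 to 4.52, LH livers from 0.97 to 3.33 and LL livers from 0.70 to 3.56. The differences from HH were 1.57 ± 0.55 in LH, 1.65 ± 0.55 in HL and 1.46 ± 0.55 in LL. Per1 (chromosome 11, 69095108-69109965), an inhibitor of BMAL1 and CLOCK, read -0.58, 1.08, -0.05, -0.29 and 1.21 in HH and differed by 0.80 ± 0.37 in LH. Without HH mouse 1 the Per1 differences were 0.58 in LH, 0.56 in HL and 0.48 in LL. Cry2 (chromosome 2, 92403646-92434085), which represses with the PER proteins, read 0.97, 1.83, 0.65, 0.82 and 1.56 in HH and differed by 0.58 ± 0.22 in LH. The dimmer Cry2 probe gave an LH difference of 0.13. Per2 (chromosome 1, 91415977-91459351), a further inhibitor of BMAL1 and CLOCK, had an LH difference of 0.33 ± 0.22, and its second probe gave 0.06. Per3 (chromosome 4, 150997018-151044707), the third period gene, read between -0.57 and -0.11 in HH and reached 1.34 in HL and 1.1 in LH, but on arrays where the HH spots were mostly not well above background. No member separated HH from another diet group without overlap in liver, where 1.54% of probes did so for LH, 0.202% for HL and 0.327% for LL. Taken by matching, the median member difference in liver was -0.41 for matched minus switched diets, where the median of all probes was 0. It was -0.91 ± 0.45 for Dbp, -0.88 ± 0.38 for Ciart, -0.64 ± 0.25 for Tef and -0.57 ± 0.17 for Per3. This contrast holds the same HH mice, and the 2 matched groups were not alike. Dbp averaged 0.57 in HH and 1.75 in LL, against 2.12 in HL and 2.02 in LH. Per2 was highest in LL (1.64), whereas Per3 in LL (-0.18) lay nearer to HH (-0.32). The Per3 values depended on the signal used, and with the scanner's processed signals the differences from HH were 1.76 in LH, 1.58 in HL and 0.79 in LL, against 0.67, 0.61 and 0.14 here. Without HL mouse 5 the Per3 difference in HL was 0.40.

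**Figure D2:**
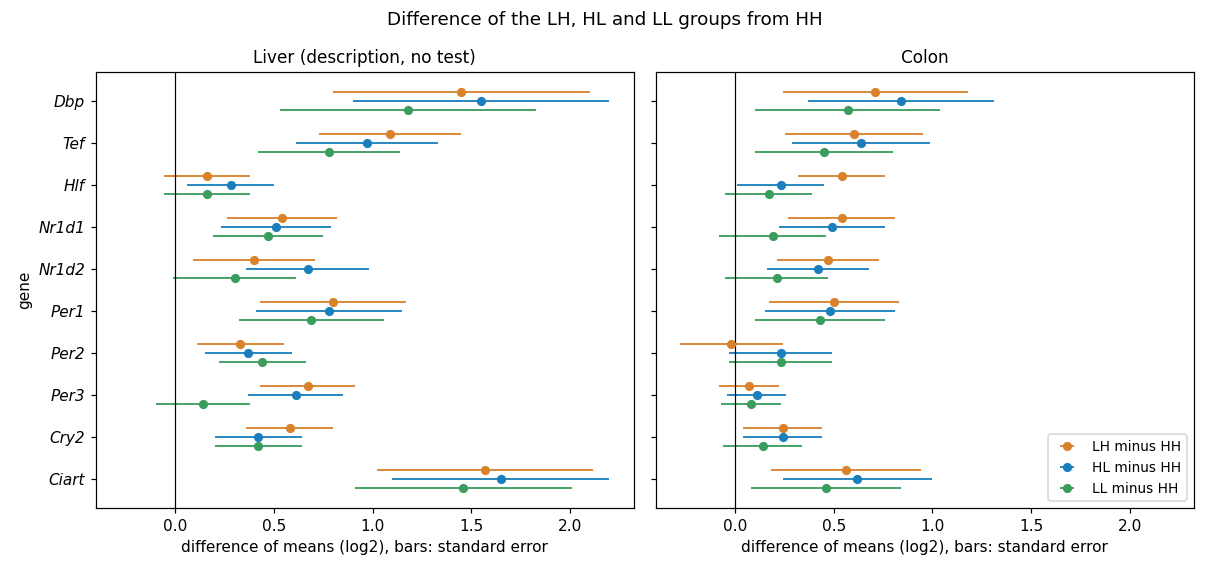
Difference of the LH, HL and LL group means from HH in log2 units for each member, in liver (left, description only) and colon (right), with bars of 1 standard error from the limma fit. All liver points and all colon points but that of Per2 in LH (-0.02) lie to the right of 0, with the liver points of Dbp between 1.18 and 1.55 and its colon points between 0.57 and 0.84.

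In colon, which was not used to choose the members, HH again had the lowest mean for most members, but no difference passed the test. With limma over 41173 probes, a call needed both a 1.5-fold difference and an FDR under 0.05. It was met by 0 members and 0 probes (0%) in each of the 6 colon contrasts. Between 603 and 1336 probes had an unadjusted limma p under 0.05, in each contrast less than the share of 0.05 expected on average with no difference. All adjusted p-values in these contrasts were 1. HH had the lowest mean of the 4 groups for 9 of 10 members, the exception being Per2, with a mean of -0.15 in HH and -0.17 in LH. The median member difference was 0.52 in LH, 0.45 in HL and 0.22 in LL, with the median of all probes at 0. A mean above HH was found for 9 of 10 members in LH (52.2% of all probes), 10 in HL (50.6%) and 10 in LL (50.4%). The members moved together between colon mice, with a median r of 0.72 over pairs of members, so these counts are not separate observations. The colons may also come from the same mice as the livers. Over 1.5-fold above HH were Dbp and Tef in LH, where 0.0753% of probes were, and Dbp, Tef and Ciart in HL, where 0.034% were. In LL, where 0.0753% of probes were over that fold, no member was. In no colon contrast did a member separate from HH without overlap, against 0.176% of probes in LH, 0.0736% in HL and 0.0367% in LL.

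Dbp in the HH colons read 0.45, 0.40, 1.5, -0.29, 1.68 and -0.37. In HL colons it read 1.90, 1.24, 1.33, 2.44, 1.28 and 0.21, in LH colons -0.23, 1.83, 2.06, 0.65, 1.87 and 1.45, and in LL colons 1.78, 2.00, 1.67, -0.40, 1.65 and 0.09. Each group thus held mice near or below 0.5 and mice above 1.2, and 4 of the 9 lowest mice of all 24 were HH. The LH difference was 0.71, with a 95% confidence interval from -0.25 to 1.67, and the HL difference was 0.84, from -0.12 to 1.80. Dbp was above the HH array of its slide in 5 of 6 slides for LH and in 4 of 6 for HL and for LL.

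Tef had colon means of -0.97 ± 0.66 (SD, n = 6) in HH, -0.34 ± 0.46 in HL, -0.37 ± 0.79 in LH and -0.52 ± 0.70 in LL. In HH, 4 of the 6 mice lay between -1.5 and -1.32, a range that LH mouse 1 (-1.66) and LL mice 4 and 6 (-1.43 and -1.37) reached too, while the lowest HL mouse read -1.1. Hlf had the lowest unadjusted p of the members in the LH contrast (0.0246), with a difference of 0.54, an interval from 0.08 to 1.00 and an adjusted p of 1. It was higher in LH than in HH on 6 of 6 slides. Nr1d1, Nr1d2 and Cry2 were also above HH on all 6 slides, with differences of 0.54, 0.47 and 0.24 and intervals that reach from -0.03 to 1.1, from -0.07 to 1.01 and from -0.17 to 0.65. With slide as a block the smallest adjusted p of a member in LH minus HH was 0.507 (Hlf). These intervals leave room for differences over 1.5-fold for Dbp, Ciart, Per1, Nr1d1, Nr1d2, Tef, Hlf and Cry2 in LH.

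Some colon LL differences changed sign when the 6 colon mice with high Xist signal were left out. The LL minus HH difference was then -0.13 for Nr1d1, -0.17 for Nr1d2, -0.10 for Cry2 and -0.06 for Per3, all of which were above 0 with those mice. Only LL mice 2, 4 and 6 remained, and mice 4 and 6 were low in Dbp (-0.40 and 0.09). The cause of the change was not tested. Neither the dam's diet nor the offspring's diet taken alone gave a call for any member in colon, Dbp differing by 0.22 ± 0.33 between low and high dam diets and by 0.35 ± 0.33 between low and high offspring diets. Between matched and switched diets the lowest unadjusted p of a member was 0.0417 for Nr1d1 (difference -0.42 ± 0.19, adjusted p of 1).

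The spread between mice of a group was wide for these genes in both tissues. The residual SD of Dbp within diet groups was 1.16 in liver and 0.88 in colon, where the median probe had 0.17 and 0.16. Ciart followed with 0.99 and 0.72. The lowest residual SD among members was 0.38 in liver (Per2 and Cry2) and 0.28 in colon (Per3). Each member had a higher SD than at least 93.6% of all probes in liver and at least 89.1% in colon.

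**Figure D3:**
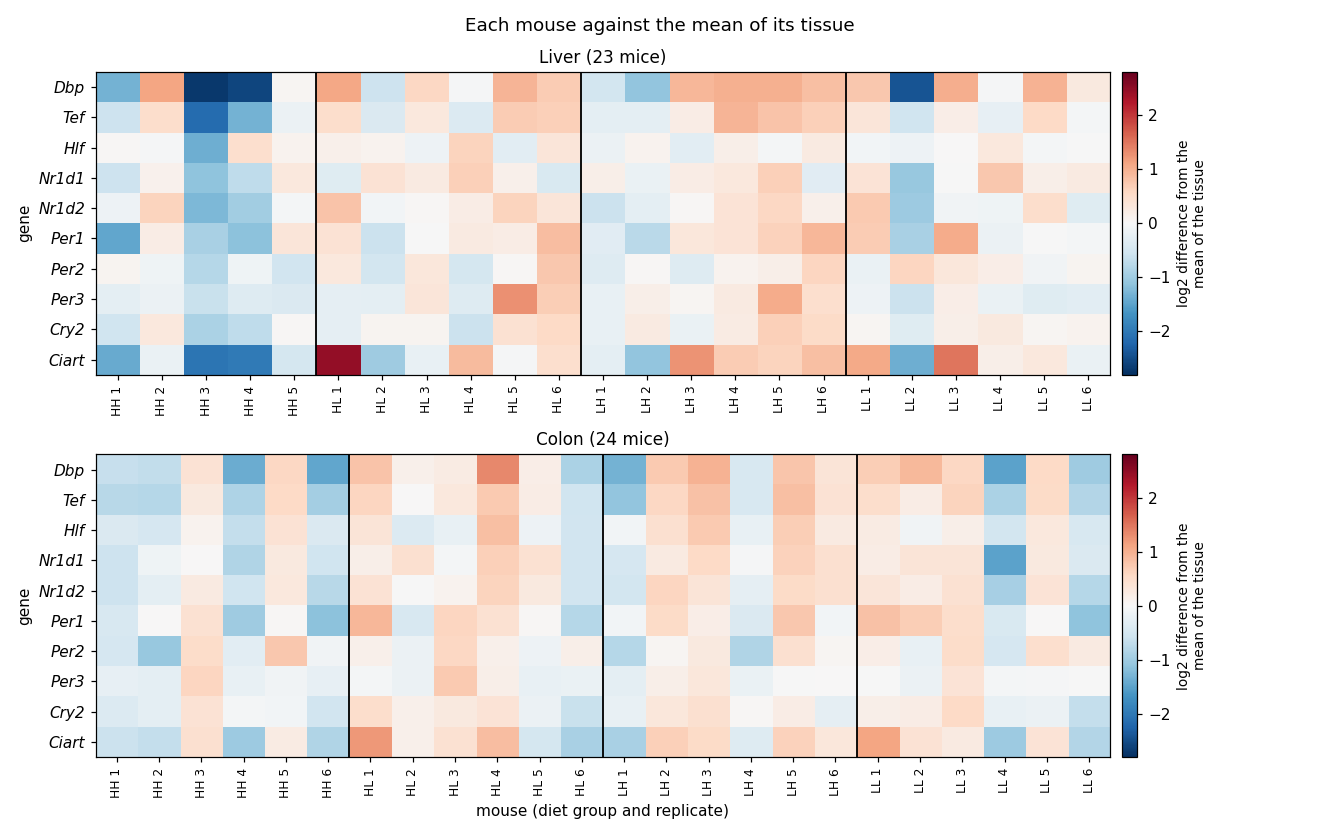
Difference of each mouse from the mean of its tissue (log2, colour) for the 10 members, with mice in columns by diet group and replicate and black lines between groups. Liver HH 3 is low for all 10 members, HH 4 for all but Hlf and LL 2 for all but Per2, and in colon LL 4 and LH 1 are low and LH 3 is high for all 10.

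Mice that were high in Dbp within their diet group were also high in most other members. Deviations from the group mean were correlated with those of Dbp for the 9 other members and Arntl in both tissues, 20 relations in all, with two-sided permutation tests of 100000 resamples within groups and Benjamini-Hochberg adjustment over the 20. In colon all 10 relations passed an adjusted p of 0.05, and in liver 8 did. The share of all genes that would pass with Dbp was not computed, so the counts cannot show that this is particular to these genes. An r of this kind asks about single mice and does not use the group means on which the members were picked, but the membership itself was proposed with such results in view. The permutation p-values therefore describe the genes chosen and are not independent support for the grouping.

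Tef and Nr1d2 followed Dbp most closely. In colon both had r = 0.96 (24 mice, permutation p = 1e-05, the smallest that 100000 resamples can give, adjusted p = 2.22e-05), with rho = 0.94 for Tef and 0.91 for Nr1d2. In liver both had r = 0.88 (23 mice, permutation p = 1e-05, adjusted p = 2.22e-05). Leaving out the 2 mice farthest from the median of Dbp gave 0.95 and 0.94 in colon and 0.85 and 0.82 in liver. Ciart had r = 0.92 in colon and 0.80 in liver, and Per1 had 0.79 and 0.82, all with adjusted permutation p-values of 0.00015 or lower.

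Arntl (BMAL1), the gene of the opposite phase, ran against Dbp in both tissues. Its r with Dbp was -0.92 in colon (permutation p = 1e-05, rho = -0.90) and -0.79 in liver (permutation p = 2e-05, rho = -0.83), and without the 2 mice farthest from the median -0.91 and -0.79. The Dbp values of colon have their largest gap, 0.59, between the 9 lowest and the 15 other mice. Over those 9 mice alone r with Arntl was -0.73 and over the 15 it was -0.88, and for Tef these values were 0.76 and 0.71. They are given as a description and use the log2 ratios themselves, not deviations from group means. In liver the largest gap, 1.11, parts 3 mice from the rest, and over the other 20 mice r of the same kind was -0.89 for Arntl and 0.86 for Tef.

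Hlf and Per2 followed Dbp in colon, whereas neither relation passed in liver. In colon Hlf had r = 0.87 (permutation p = 1e-05, rho = 0.89) and Per2 had r = 0.58 (permutation p = 0.00622, rho = 0.61). In liver they had r = 0.16 (permutation p = 0.695, rho = 0.06) and r = 0.10 (permutation p = 0.638, rho = 0.06). The difference between the tissues in r was not tested. Without the 6 colon mice with Xist signal Per2 had r = 0.48 and an adjusted permutation p of 0.0733.

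The remaining members lay in between. Nr1d1 had r = 0.89 in colon and 0.57 in liver (permutation p = 0.0213, adjusted p = 0.0251), where rho was 0.42 with an adjusted permutation p of 0.0886 and r over the 20 mice above the gap was 0.12. The last value uses log2 ratios and not deviations, over fewer mice and a narrower range of Dbp. It therefore cannot show whether the liver relation of Nr1d1 rests on the 3 lowest mice. On deviations, r of liver Nr1d1 was 0.44 without the 2 mice farthest from the median of Dbp. Cry2 had r = 0.72 in colon and 0.63 in liver (permutation p = 0.00306), and its liver r was 0.5 without those 2 mice. With the local background as deposited the liver relations of Cry2 (r = 0.36, adjusted permutation p = 0.114) and Nr1d1 (r = 0.48, adjusted permutation p = 0.0578) no longer passed, which left 6 of 10 in liver, and in colon Per3 (r = 0.40, adjusted permutation p = 0.069) did not pass. Per3 had r = 0.45 in colon (permutation p = 0.0293) and 0.44 in liver (permutation p = 0.00568), and neither passed with deviations from both group and slide means (adjusted permutation p = 0.0945 and 0.343). Without the 6 colon mice with Xist signal Per3 had r = 0.49 with an adjusted permutation p of 0.0516, so that 8 of 10 colon relations passed there. On both sides of the colon gap r for Per3 was near 0 or below, at -0.21 and -0.05, and the same was so for Per2, at -0.30 and -0.02. These values too use log2 ratios over a narrower range of Dbp. They cannot show whether the colon relations of these 2 genes rest on the step between the low and the high mice. Over all pairs of members, 45 of 45 had r above 0 in colon with a median of 0.72, and 43 of 45 in liver with a median of 0.42, the lowest being Per2 with Nr1d1 at -0.44.

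**Figure D4:**
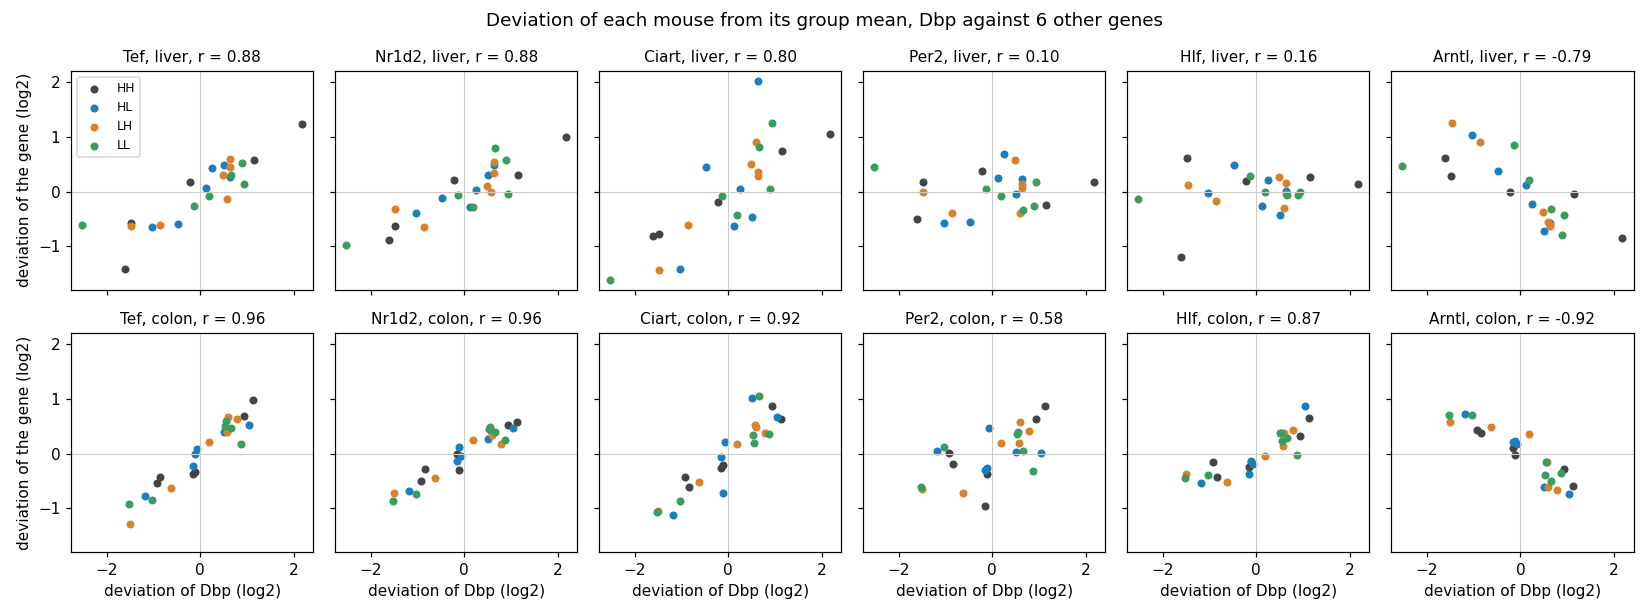
Deviation of each mouse from the mean of its diet group (log2) for Dbp on the horizontal axis and for 6 other genes on the vertical axis, in liver (top) and colon (bottom), with colours for the diet groups. Points of all 4 groups lie along 1 rising line for Tef (r = 0.88 and 0.96) and along a falling line for Arntl (r = -0.79 and -0.92), while Hlf and Per2 in liver have r = 0.16 and 0.10.

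The genes outside the list with the most similar pattern were sought by the Pearson r with the mean standardised deviation of the 10 members. In colon, over 24 mice and 14237 genes above background on all arrays, they were Usp2 (0.88), Coq10b (0.86), Tesk2 (0.85), Lefty1 (0.82) and Cep112 (0.81). The lowest were Nfil3 (-0.96), Arntl (-0.90) and Lonrf3 (-0.88). Nfil3 encodes E4BP4, the repressor that competes with the PAR bZIP factors at D-boxes, and Usp2 encodes a deubiquitinase known as a clock output. In liver, over 23 mice and 12243 genes, the highest were Polg2 (0.87), Grhpr (0.82), Rgs16 (0.82), Tesk2 (0.82) and Usp2 (0.81), and the lowest Mpzl1, Desi2 and Cdkn1a (all -0.81). Tesk2 and Usp2 were thus among the top 5 in both tissues. These genes were picked by their rank among all genes, and the values carry no test.

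The levels of several members differed between liver and colon. Of the 10 members, 5 were called, all higher in liver, by limma over 41171 probes, of which 30.4% were called, 14.6% higher and 15.7% lower in liver. Tissue and scan day cannot be told apart, since liver and colon slides were scanned apart, and in whole tissue a lower share of expressing cells and less RNA per cell cannot be told apart either. Hlf was the clearest, with a mean of 1.79 in liver and -1.08 in colon, 2.87 ± 0.11 (SE, log2) or 7.29-fold higher in liver (adjusted p = 2.1e-26). All 23 livers, from 0.43 to 2.41, lay above all 24 colons, from -1.74 to -0.23.

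**Figure D5:**
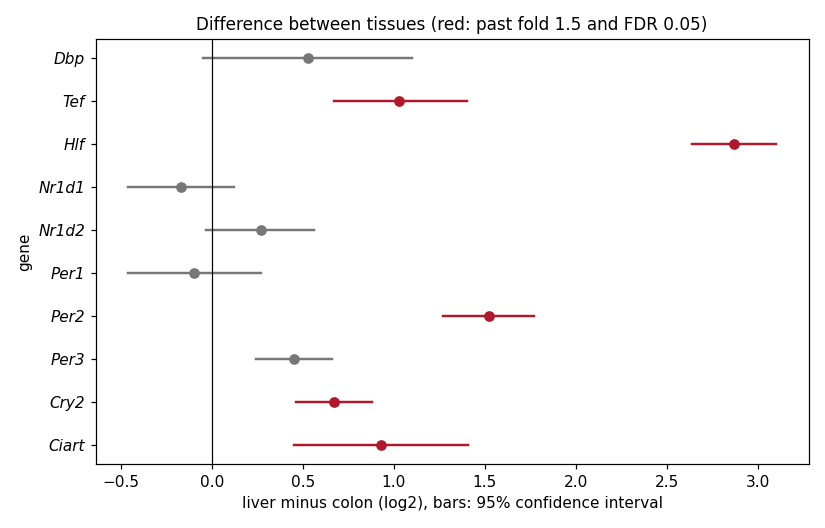
Difference between the mean of the liver groups and the mean of the colon groups (log2) for each member, with 95% confidence intervals from the limma fit and the called members in red. Hlf (2.87) and Per2 (1.52) lie farthest to the right, and the intervals of Dbp, Nr1d1, Nr1d2 and Per1 include 0.

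Per2 was 1.52 ± 0.12 higher in liver (2.87-fold, adjusted p = 5.72e-15), its livers running from 0.70 to 2.25 and its colons from -1.11 to 0.72, and its second probe gave 1.15. Tef differed by 1.03 ± 0.18 (adjusted p = 2.22e-06) and Ciart by 0.93 ± 0.24 (adjusted p = 0.000638), with wide overlap of single mice in both, and median centring of the arrays in place of loess gave 0.48 for Tef, under the fold needed. Cry2 differed by 0.67 ± 0.11 (adjusted p = 2.49e-07) on its lead probe, while its dimmer probe gave -0.07 and was not called, and the lead probe gave 0.05 with median centring and 0.54 with the local background as deposited, neither of them a call. Per3 passed the FDR but not the fold (0.45 ± 0.10, 1.37-fold). Dbp itself did not pass, with 0.53 and an interval from -0.05 to 1.1, although without the 8 samples with Xist signal it was 0.77 with an adjusted p of 0.0428. Nr1d1 (-0.17, interval from -0.46 to 0.12), Nr1d2 (0.27, from -0.03 to 0.56) and Per1 (-0.10, from -0.46 to 0.27) had intervals that include 0. The 2 dimmer Nr1d1 probes gave 0.19 and 0.27, so the direction for that gene is not settled.

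The other genes of the clock pathway are given by the lists chosen for this work. A list of 9 genes was named for activators and the opposite phase, but their phase was not measured here. Of these, 6 had lower means in LH than in HH in liver and 6 in colon, with medians of -0.23 and -0.06. The 3 others in each tissue had higher means, as did 47.3% of all probes in liver and 52.2% in colon. Bhlhe40 was among them in both, at 1.29 in LH and 0.85 in HH livers and 0.40 and 0.16 in colons. Arntl stood at -0.32 ± 0.54 (SD, n = 5) in HH livers, -1 ± 0.65 in HL, -1 ± 0.85 in LH and -0.75 ± 0.62 in LL. In colon it stood at -0.21 ± 0.39, -0.60 ± 0.56, -0.68 ± 0.55 and -0.48 ± 0.55 in the same order. HH thus had the highest Arntl mean in both tissues, where it had the lowest Dbp mean, and the colon LH difference of -0.48 ± 0.27 had an unadjusted p of 0.0963 and an adjusted p of 1. None of the 9 was called in a colon diet contrast. Between tissues 5 were called, all higher in liver (14.6% of all probes), among them Rora (1.98), which activates through RORE sites, Nfil3 (1.35), Cry1 (0.85) and Bhlhe40 (0.72).

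Of 8 kinases and ubiquitin ligases that set the stability of PER and CRY proteins, none was called in a colon diet contrast, and the median LH difference was 0.02 in liver and 0.03 in colon. Between tissues Csnk1e (-1.59), Csnk1a1 (-1.29) and Csnk1d (-0.72), the casein kinase genes, were lower in liver, and Fbxl21 (0.60) was higher. Of 15 clock output genes, 10 had a higher mean in LH than in HH in liver (47.3% of all probes), with a median of 0.29. In colon 6 did (52.2% of all probes), with a median of -0.03. Usp2 differed by 1.00 ± 0.38 and Lpin1, a phosphatidate phosphatase, by 0.93 ± 0.40 in liver, but by 0.02 ± 0.28 and -0.11 ± 0.23 in colon. Between tissues 10 of the 15 were called higher in liver (14.6% of all probes), and Ppard (-0.91) lower (15.7%). At the top were Cyp2a5 (9.92), Cyp7a1 (7.02), the rate-limiting enzyme of bile acid synthesis, and Elovl3 (5.52).

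Genes that answer feeding and glucocorticoids were measured for 10 of the 12 listed. In liver 4 had a higher mean and 6 a lower mean in LH than in HH, where 47.3% of all probes were higher. Fkbp5, a glucocorticoid-induced chaperone partner, differed by 0.63 ± 0.18, Tsc22d3 by 0.50 ± 0.24 and Igfbp1, a fasting-induced binding protein of insulin-like growth factors, by 0.72 ± 0.35. Of those with a lower mean, Pdk4, a kinase that spares glucose in fasting, had the largest difference, at -0.74 ± 0.35. In colon 5 were higher and 5 lower (52.2% of all probes were higher), none was called, and Fkbp5 differed by 0.09 ± 0.20. Between tissues 6 were called higher in liver (14.6% of all probes), among them Igfbp1 (6.65) and G6pc (4.97). Ppargc1a (-1.83), Sgk1 (-1.27) and Fkbp5 (-1.02) were called lower (15.7% of all probes).

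The tissues carried their own markers. All 6 hepatocyte markers were called higher in liver, by 5.04 (Alb) to 6.43 (Apoa1), and all 6 markers of colon epithelium and all 6 of smooth muscle were called lower. Among livers the mean of the hepatocyte markers ran from 0.88 to 1.61 in HH, from 0.93 to 1.69 in HL, from 1.56 to 1.84 in LH and from 1.38 to 1.69 in LL, the lowest HH value belonging to mouse 4 and the highest to mouse 3, both of them low Dbp mice. The mean of 5 macrophage and Kupffer cell markers ran from 0.82 to 2.34 in HH livers, with HH mouse 3 at the top, and from 0.69 to 1.83 in the other groups. Markers of exocrine pancreas reached 1.01 in HL liver mouse 1 and ran from -2.58 to -1.78 in the other liver groups. Adipocyte markers reached 1.76 in LH liver mouse 4 and -0.31 at most in the other liver groups. In colon the adipocyte mean ran from -0.81 to 3.18, and LL mouse 4, with the lowest colon Dbp, had the highest colon mean of lymphocyte markers (1.81) and of macrophage markers (1.04), which reached at most 0.09 and -0.26 in the HH, HL and LH colons. The part of these cell types in the clock gene values was not tested.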

How the data were processed

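Liver and colon RNA (Cy3) was hybridised with a common reference RNA (Cy5) on 48 Agilent 2-colour arrays with no dye swap. The authors deposited scanner output with spot intensity and local background for each channel, which per the file headers came from Feature Extraction 10.10.1.1, and a table of log2 ratios that per the labels and submitters' notes was made with limma under R 3.0.2. That table runs as log2 reference over mouse, so its sign was turned, and it served as an alternative.

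From the median intensities, a local background brighter than its spot was replaced by that array's median background. Normexp (offset 50) and global loess followed, control spots having weight 0, and outlier spots were left out. Of 45018 spots, 43379 were not controls, and spots of a probe were averaged to 41174 probes, 27050 with a gene name. Probe accessions were mapped to symbols and coordinates through a RefSeq table (GRCm38.p6). The precision is limited by the number of arrays.

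Tests were run with limma 3.58.1 under R 4.3.3 over all probes (lmFit, eBayes, Benjamini-Hochberg), a call needing a fold change over 1.5 and an FDR under 0.05. The 4 groups of a tissue shared 1 fit, and all groups shared 1 fit for liver minus colon. Permutations of mice within diet groups and promoter searches used Python 3.11.15 and numpy 2.4.6. The fits were tested on simulated data. The members and gene lists were chosen with earlier results of these data known.

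Named were all members by their brightest probe (others where direction or call disagreed), from the other lists the genes called in a contrast or the 3 with the lowest p in colon LH minus HH, and per tissue the 5 most and the 3 least alike genes. Some genes of these lists are not reported here by name. Genes named beside these, and the liver values of listed genes, were chosen after their values were seen. Alternatives changed the background correction, the normalization, the filter on dim probes, the slide as a block, array weights, the samples in the fit, the mice with Xist signal and each mouse in turn.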

Additional observations from a re-analysis of the deposited data

Results flagged for a closer look

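In 80 groups of 5 or 6 mice, the highest or lowest mouse of a member stood apart by Dixon's ratio (its gap to the nearest mouse over the whole range) in 6. Chance marks about 1 group in 20. Dbp in LL livers had a ratio of 0.691, from mouse 2 at -0.76 with the next at 1.62. Cry2 in LL livers had a ratio of 0.639, again from mouse 2, at 1.2 with the next at 1.58. Hlf in HH livers had a ratio of 0.729, from mouse 3 at 0.43 with the next at 1.76, and in LL livers a ratio of 0.658, from mouse 4 at 2.08 with the next at 1.80. Per3 in HH colons had a ratio of 0.803, from mouse 3 at 0.18 with the next at -0.51. Per3 in LL colons had a ratio of 0.742, from mouse 3 at -0.04 with the next at -0.43. Both of these Per3 mice were on the same slide, where all 4 colon arrays (0.18 in HH, 0.32 in HL, -0.09 in LH and -0.04 in LL) were the highest of their groups, so the 2 ratios are not separate cases.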

How the results depend on the processing

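The count of colon calls stayed at 0 in all 6 contrasts under every alternative run, leaving out each mouse in turn included (0 to 0). The liver minus colon count of 12497 probes ran from 12446 to 12551 with single mice left out, became 20275 with the scanner's processed signals and 24221 with median centring, which moved the median of all probes to 0.22. Median centring also gave Nr1d2 -0.32, Per1 -0.72, Nr1d1 -0.78, Tef 0.48 and Cry2 0.05 for liver minus colon, the first turning its direction, Per1 and Nr1d1 gaining and Tef and Cry2 losing the call. With the local background as deposited, Per3 in colon read -0.07 in LH, -0.03 in HL and -0.06 in LL, Hlf in LL -0.02, and liver Per2 correlated with Dbp at -0.15. Without mice with Xist signal, colon Per2 in LH turned to 0.11, colon LL turned to -0.06 for Per3, -0.13 for Nr1d1, -0.17 for Nr1d2 and -0.10 for Cry2, and Per1 for liver minus colon to 0.06. With single mice left out, colon Per2 in LH ran from -0.21 to 0.15, colon Per3 in HL from -0.02 to 0.25 and Dbp for liver minus colon from 0.39 to 0.65. The cause of these moves was not tested. Replicate numbers coincide with the slide, so the slide served as the replicate block. It changed no call of a member, with 0 colon probes and 12502 probes between tissues called, the correlation within slides being 0.207 over both tissues, while Per3 no longer passed its relation with Dbp (r = 0.29 in liver and 0.49 in colon).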
